A study of Arabidopsis thaliana with 18 samples.

Results

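A set of 10 genes of carbon fixation was followed in Arabidopsis thaliana leaves in which the acetyltransferase gene NAA50 was knocked down. They are the 4 nuclear genes of the Rubisco small subunit (RBCS1A, RBCS1B, RBCS2B and RBCS3B) and 6 genes for Rubisco activation and the Calvin cycle (RCA, PRK, SBPASE, GAPA, GAPB and CP12-2). These 10 of the 23790 genes in the count table were taken by name, for their place in the pathway, with earlier results of these data known. All 10 passed the filter on low counts, with 1899 to 173742 counts in each library.

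Rubisco fixes carbon dioxide in the chloroplast and is built from large subunits, encoded in the chloroplast genome, and small subunits, encoded by a family of nuclear genes. The Calvin cycle reduces the fixed carbon with energy from the light reactions and rebuilds the acceptor of carbon dioxide, ribulose bisphosphate. In leaves the nuclear genes of this pathway are known for very abundant transcripts that depend on light.

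Both transgenic lines carry an artificial microRNA (amiRNA) that dexamethasone, a synthetic glucocorticoid, induces. The amiRNA of the NAA50 line targets NAA50, the gene of a catalytic subunit of N-terminal acetylation, and that of the scrambled line, the control, has a scrambled sequence. Leaves were sampled at 0, 12 and 24 h, with 3 libraries in each of the 6 groups (18 in all), and all groups were labelled as sprayed with 50 µM dexamethasone, the control line and the 0 h samples included. Plants were 4 weeks old and grown in short days (8 h light, 16 h dark), and each sample was 0.4 g of tissue pooled from the 4th leaf of 4 plants. The labels do not give the promoter of the amiRNA, how many independent plants founded a line, or the time of day of sampling, and there was no unsprayed group. A change from 0 h within a line therefore combines the spray, the induced amiRNA and the passage of time, and these cannot be told apart. In the NAA50 line it includes the knockdown. If all plants were sprayed together, 0 and 12 h cannot both have fallen in the 8 h of light. A change from 0 to 12 h may then also hold a change of light and time of day. In whole leaves, fewer cells of a type and less RNA per cell cannot be told apart either, and p-values measure the spread between pooled samples.

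Libraries held 10389333 to 12353330 counts. NAA50 itself was at 12.6 ± 0.932 CPM (counts scaled to a common library size; SD, n = 3) in its own line at 0 h, 3.68 ± 0.522 at 12 h and 3.43 ± 1.14 at 24 h, against 14.0 ± 0.705, 15.02 ± 1.99 and 16.9 ± 0.832 in the scrambled line. The 14 listed light-harvesting genes, markers of green leaf, summed to 92037 to 126038 CPM in the scrambled libraries at 0 h. In the NAA50 libraries at 0 h they summed to 67735 to 89475 CPM, without overlap. Singly, 0 of these 14 were called at 0 h, with a median log2 difference between the lines of -0.43. The late senescence marker SAG12 was at 0 in every library at 0 and 12 h. Scrambled library 2 at 0 h had the lowest scaling factor of all libraries (0.864) and the highest level of its group for 10 of the 10 genes, and scrambled library 2 at 24 h had the lowest for 10 of the 10. Other libraries were also at the end of their group for 10 of the 10: scrambled library 3 at 24 h and NAA50 library 2 at 12 h were highest, and NAA50 libraries 3 at 0 and 12 h lowest. Counts of genes called are given without single libraries, and without both libraries 2, where they move by 1.5 times or more.

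The 4 RBCS genes lie at 2 places in the genome. RBCS1A (AT1G67090) is at chr1:25048158-25049667 of TAIR10.1, on the minus strand. RBCS1B (AT5G38430, chr5:15383167-15385320), RBCS2B (AT5G38420, chr5:15380907-15382071) and RBCS3B (AT5G38410, chr5:15376988-15378642) lie side by side on the minus strand of chromosome 5 within 8333 bases. Their coding sequences were 96.7% to 97.3% identical to each other and 90.4% to 90.6% identical to RBCS1A. The 60 coding bases from 91 to 150, the stretch with the most differences among the chromosome 5 genes, show how little tells the transcripts apart (RefSeq, TAIR10.1). Capitals mark the 11 positions at which the 4 genes are not all the same.
RBCS1A: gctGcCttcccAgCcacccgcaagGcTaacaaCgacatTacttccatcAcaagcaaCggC
RBCS1B: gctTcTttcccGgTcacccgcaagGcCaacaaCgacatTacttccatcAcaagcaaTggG
RBCS2B: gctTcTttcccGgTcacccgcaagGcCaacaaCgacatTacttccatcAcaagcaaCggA
RBCS3B: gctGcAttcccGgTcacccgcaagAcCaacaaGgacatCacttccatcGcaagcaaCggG
RBCS2B and RBCS1B differ in this stretch at few positions near its end, while RBCS1A differs from all 3 at several. Of all 50-base windows in the annotated exons, 21.4% of those of RBCS2B, 18.3% of RBCS3B and 14% of RBCS1B occurred exactly in another gene. This compares with 1.48% for RBCS1A and 0% for the other 6 genes. The order within the trio depended on window length. With 75-base windows the shares were 4.99% for RBCS2B, 15% for RBCS3B and 9.01% for RBCS1B. With 100-base windows they were 0%, 12% and 7.47% in the same order. How reads that match several genes were counted is not given in the sources used here, so levels within the chromosome 5 trio, and the size of the trio's counts against those of RBCS1A, depend on a rule that is unknown here.

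Upstream of the coding sequence, RBCS genes of many plants carry a G-box (CACGTG) close to I-boxes (GATAAG), elements known for light-regulated transcription. The sites of the 4 RBCS genes are shown as a description, and any part of them in the results was not tested. Each is 30 bases of TAIR10.1, read 5′ to 3′ along the gene, with both motifs in capitals on either strand (CTTATC is the I-box read from the other strand).
RBCS1A: ggaattatcttcCACGTGgcattattccag
RBCS1B: tcacaaaagaaaGATAAGATAAGggtgtca
RBCS2B: ggagttttctgcCACGTGatCTTATCctag
RBCS3B: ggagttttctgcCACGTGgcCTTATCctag
They lie at chr1:25049491-25049520, chr5:15385308-15385337, chr5:15382177-15382206 and chr5:15378506-15378535. RBCS2B and RBCS3B share nearly the same site, a G-box with an I-box 2 bases after it. The G-box began 84 bases before the annotated start nearest the coding sequence in RBCS1A, 123 in RBCS2B and 107 in RBCS3B. No CACGTG was found in the 250 bases before that start in RBCS1B, where 2 overlapping I-boxes began 78 and 73 bases before it. In the same 250 bases I-boxes began 130, 99 and 78 bases before the start in RBCS3B, and 108 and 55 before it in RBCS1A. The window of RBCS2B is printed because this gene had the largest differences between the lines. It holds 1 G-box and 3 I-boxes, as does that of RBCS3B (chr5:15382072-15382321 for RBCS2B, minus strand, capitals as above).
RBCS2B: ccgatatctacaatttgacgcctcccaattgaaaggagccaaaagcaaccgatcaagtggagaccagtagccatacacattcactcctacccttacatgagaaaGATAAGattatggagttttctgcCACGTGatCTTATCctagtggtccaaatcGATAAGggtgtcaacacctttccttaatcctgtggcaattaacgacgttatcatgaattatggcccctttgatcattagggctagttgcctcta
Of the 10 genes, 5 had a G-box in this window (RBCS1A, RBCS2B, RBCS3B, RCA and PRK), against 6.68% of 27443 promoters of the same length. An I-box was found in 5 (the 4 RBCS genes and CP12-2), against 12.6%, and TATAAA in 2 (RBCS1A and SBPASE), against 46.1%. The evening element AAAATATCT, a clock-associated motif, was found in 0 of the 10 and in 2.33% of all promoters. With windows before the outermost annotated start, G-boxes were found in 2 of the 10 and I-boxes in 3. All searches covered both strands, and a match is a string of letters, which says nothing of binding.

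RBCS2B had the largest line differences of the 10 genes at 12 and 24 h. In the scrambled line its levels were 2847, 4499.7 and 2645 CPM at 0 h, 2305, 2626 and 1971 at 12 h, and 1577, 942 and 2207 at 24 h (libraries 1, 2 and 3). In the NAA50 line they were 1993, 2824 and 1719 CPM at 0 h, 424, 483 and 383 at 12 h, and 343, 453 and 369.6 at 24 h. The 0 h libraries of the lines overlapped, and the 6 later libraries of the NAA50 line were all below the other 12. The log2 difference between the lines (NAA50 line minus scrambled line ± SE) was -0.61 ± 0.28 at 0 h (edgeR quasi-likelihood test, Benjamini-Hochberg adjusted p = 0.366). After 12 h it was -2.42 ± 0.29, a level 5.35-fold lower (adjusted p = 1.11e-05). After 24 h it was -2.02 ± 0.29, or 4.06-fold lower (adjusted p = 4.35e-05). The knockdown response, which is the line difference less the difference at 0 h, was -1.81 ± 0.39 at 12 h (adjusted p = 0.00401), then -1.41 ± 0.39 at 24 h (adjusted p = 0.0143). Both responses were called under all 25 other settings tried, with adjusted p up to 0.0121 at 12 h and 0.0422 at 24 h.

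RBCS3B, which stands next to RBCS2B on the chromosome, had the next largest line differences. Its levels at 0, 12 and 24 h were 3935, 5743 and 3899, then 2980.2, 3257 and 2441, then 2039, 1180.3 and 2498 CPM in the scrambled line. The NAA50 libraries were at 2880.0, 4091 and 2636, then 963, 1150.0 and 784, then 818, 975 and 696 CPM. At 12 and 24 h all NAA50 libraries were below all scrambled libraries of the same time, at 24 h by a narrow margin from scrambled library 2. The line difference was -1.58 ± 0.27 at 12 h (adjusted p = 2.33e-04), then -1.20 ± 0.27 at 24 h (adjusted p = 0.00170). The response was -1.08 ± 0.37 at 12 h (adjusted p = 0.0436), called in 14 of the 25 other settings (adjusted p up to 0.112), and -0.70 ± 0.37 at 24 h (adjusted p = 0.170).

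RBCS1A gives most of the small subunit transcript in these leaves. It was at 11508, 15059 and 11525 CPM at 0 h, 11368, 11636 and 9325 at 12 h, and 7438, 5358 and 9331 at 24 h in the scrambled line. The NAA50 libraries were at 8733, 12059 and 8691, then 5058, 6178 and 4218, then 3987, 4893 and 3644 CPM. The lines overlapped at 0 h only, and the lowest scrambled library at 24 h was close to the highest NAA50 library. The line difference was -1.06 ± 0.23 at 12 h (adjusted p = 0.00147), then -0.82 ± 0.23 at 24 h (adjusted p = 0.00782). Fitted on its own groups alone, the 24 h difference had an adjusted p of 0.0503, and it was called in the other 24 settings. The responses, -0.70 ± 0.32 and -0.45 ± 0.32, did not pass (adjusted p = 0.126 and 0.310). RBCS1B, the least abundant small subunit gene by mean CPM at 0 h, was at 719 to 1175 CPM in the scrambled line and 545 to 871 in the NAA50 line at 0 h, with overlap. It was at 1134 to 1484 CPM in the scrambled line and 432 to 668 in the NAA50 line at 12 h. At 24 h it was at 456 to 1025 and 308 to 455 CPM, so that scrambled library 2 lay barely above the highest NAA50 library. Its line difference was -1.29 ± 0.28 at 12 h (adjusted p = 0.00159), then -1.03 ± 0.28 at 24 h (adjusted p = 0.00684), with responses of -0.78 ± 0.39 and -0.52 ± 0.39 that did not pass (adjusted p = 0.156 and 0.340).

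**Figure D1:**
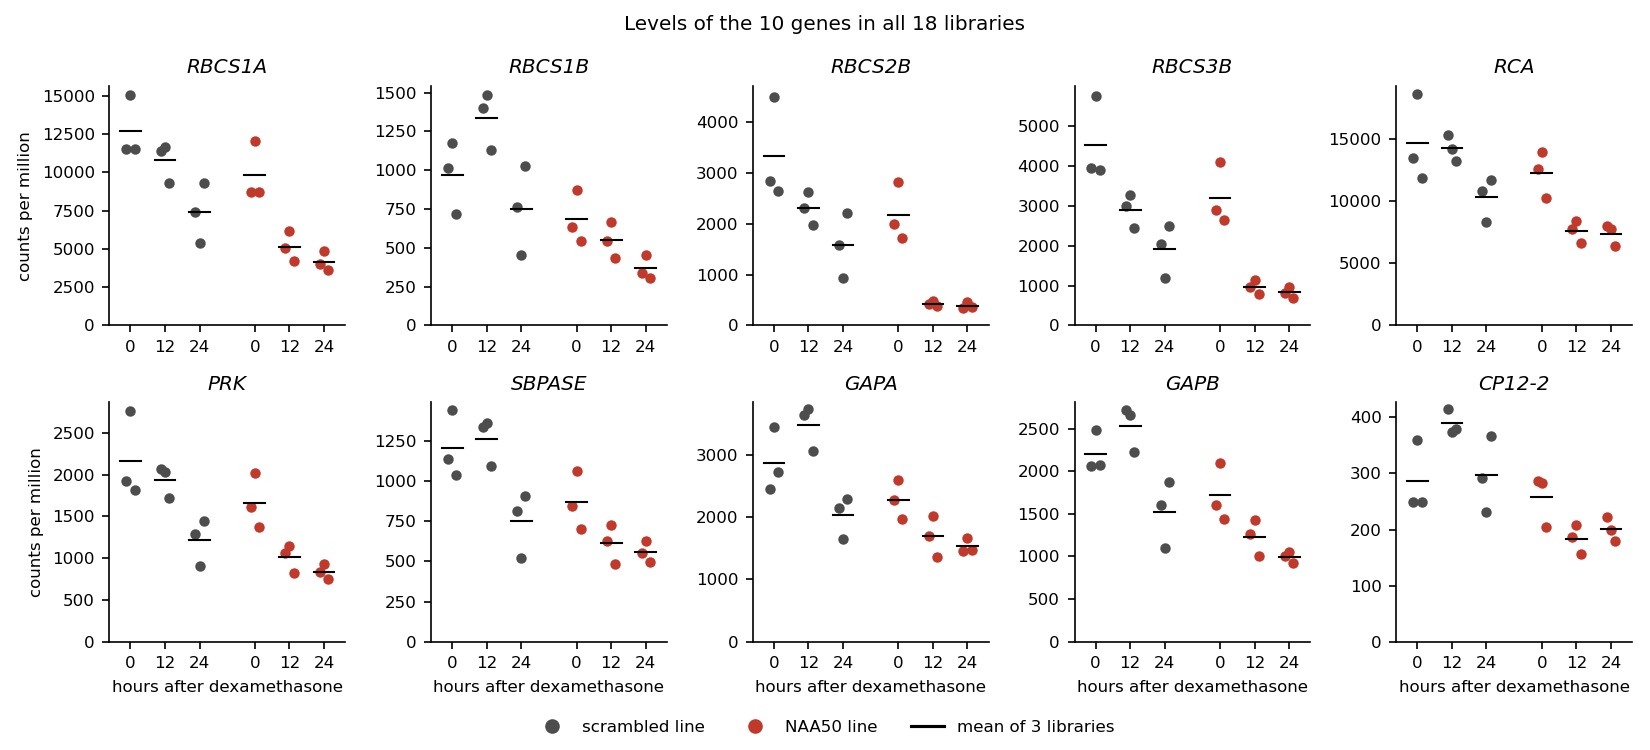
Levels of the 10 genes in all 18 libraries, in CPM on axes that start at 0, by hours after dexamethasone; points are libraries (scrambled line grey, NAA50 line red) and bars are means of 3. RBCS2B was between 343 and 483 CPM in the 6 induced NAA50 libraries and at 942 or above in all others.

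The make-up of the RBCS pool also differed. RBCS1A held 59.6%, 56.9% and 61.3% of the counts of the 4 RBCS genes in the scrambled line at 0 h, 63.0%, 61.2% and 62.7% at 12 h, and 63.0%, 67.5% and 62.0% at 24 h. Its share in the NAA50 line was 61.3%, 60.8% and 63.9% at 0 h, 72.4%, 72.9% and 72.5% at 12 h, and 72.7%, 72.2% and 72.6% at 24 h. All 6 induced NAA50 libraries thus lay within 1 narrow band above every other library. Over 12 and 24 h the mean was 72.5% against 63.2% in the scrambled line (exact permutation test of line labels within times, two-sided p = 0.005, the smallest that 400 permutations allow, adjusted p = 0.00875 over 7 shares). RBCS2B held 6.44% of the pool in the NAA50 line and 13.3% in the scrambled line (exact p = 0.005, adjusted p = 0.00875), and RBCS3B 14.0% and 16.5% (exact p = 0.01, adjusted p = 0.014). The RBCS1B share was 7.02% in the NAA50 line and 7.03% in the scrambled line (exact p = 0.975). At 0 h the shares gave exact p between 0.2 and 0.8, where 0.1 is the smallest the 3 against 3 libraries allow.

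The shares also differed between times, which is described here without a test. RBCS1B held 4.51% ± 0.722 (SD, n = 3) of the pool at 0 h, 7.73% ± 0.0955 at 12 h and 6.33% ± 0.539 at 24 h in the scrambled line, and 4.28% ± 0.236, 7.70% ± 0.237 and 6.34% ± 0.318 in the NAA50 line. At each time the RBCS1B share of the lines overlapped. RBCS3B went from 20.9% ± 0.674 to 16.7% ± 0.392 and 16.2% ± 1.23 in the scrambled line and from 20.1% ± 0.623 to 13.6% ± 0.154 and 14.4% ± 0.525 in the NAA50 line. The 4 genes together held 2.004% ± 0.247 of all counts in the scrambled line at 0 h, 1.64% ± 0.183 at 12 h and 1.19% ± 0.358 at 24 h. In the NAA50 line they held 1.59% ± 0.286, 0.755% ± 0.136 and 0.587% ± 0.0802. Over 12 and 24 h the pool was smaller in the NAA50 line, 0.671% against 1.41% of all counts (exact p = 0.005, adjusted p = 0.00875). With each of the 12 libraries of 12 and 24 h left out in turn, exact p stayed at 0.015 or below for the pool and for the shares of RBCS1A, RBCS2B and RBCS3B. Shares are of raw counts and are not corrected for gene length, and those of RBCS1B, RBCS2B, RBCS3B and GAPA-2 were added after the values were seen.

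**Figure D2:**
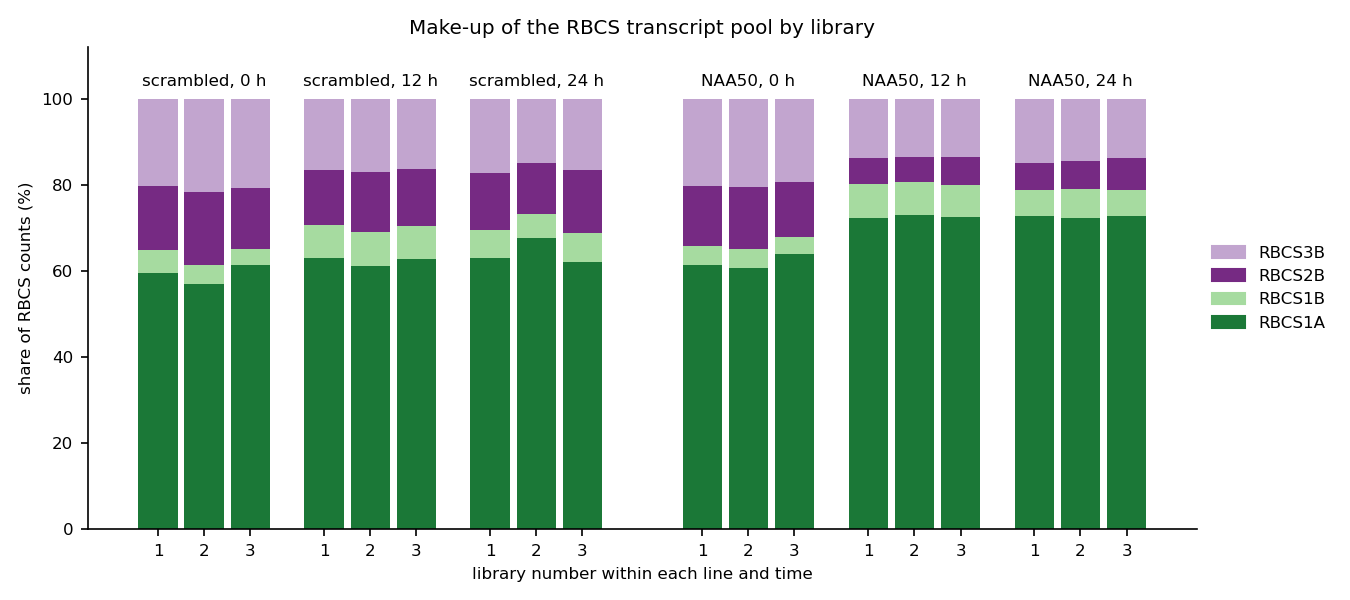
Share (%) of the counts of the 4 RBCS genes held by each gene in each library; bars are libraries 1 to 3 of each line and time. The RBCS1A segment ends at 72.2% to 72.9% in the 6 NAA50 libraries at 12 and 24 h and at 67.5% or below in the other 12.

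RCA encodes Rubisco activase, which uses ATP to free the active sites of Rubisco from inhibitory sugar phosphates (AT2G39730, chr2:16570746-16573692). It was at 13464, 18653 and 11860.1 CPM at 0 h, 15299.9, 14227 and 13236 at 12 h, and 10845, 8359 and 11728 at 24 h in the scrambled line. The NAA50 libraries were at 12606, 13984 and 10264, then 7786, 8366 and 6611, then 7969.8, 7725 and 6427 CPM. At 12 h the lines were far apart, and at 24 h only scrambled library 2 came near the NAA50 libraries. The line difference was -0.91 ± 0.20 at 12 h (adjusted p = 0.00194), then -0.48 ± 0.20 at 24 h (adjusted p = 0.0598), and at 24 h the groups did not overlap. The 24 h difference was called in 6 of the 25 other settings (adjusted p up to 0.176). Among these was the fit without scrambled library 2 of 24 h, at -0.62 (adjusted p = 0.0241).

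PRK (AT1G32060, chr1:11532199-11534639) encodes phosphoribulokinase, which makes ribulose bisphosphate in the last step of the cycle. At 0 h it was at 1811 to 2767 CPM in the scrambled line and 1369.7 to 2015 in the NAA50 line. It was at 1723 to 2067 CPM in the scrambled line and 819.6 to 1138 in the NAA50 line at 12 h, without overlap. At 24 h the ranges, 899.5 to 1447 and 750.0 to 929.9 CPM, overlapped by scrambled library 2. The line difference was -0.94 ± 0.21 (adjusted p = 0.00198) and -0.53 ± 0.21 (adjusted p = 0.0476), and the second was called in 10 of the 25 other settings (adjusted p up to 0.180). SBPASE (AT3G55800, chr3:20709294-20711640) encodes sedoheptulose-bisphosphatase, which commits carbon to regeneration of the acceptor. It was at 1040.1 to 1446 and 705 to 1063 CPM at 0 h. Its ranges at 12 h were 1096 to 1363 CPM in the scrambled line and 484 to 725 in the NAA50 line, with a difference of -1.05 ± 0.22 (adjusted p = 0.00119). At 24 h they were 522 to 911 and 494 to 628 CPM and overlapped, and the difference of -0.43 ± 0.22 did not pass (adjusted p = 0.117).

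GAPA (AT3G26650, chr3:9794862-9797045) and GAPB (AT1G42970, chr1:16127353-16129895) encode the A and B subunits of the chloroplast glyceraldehyde-3-phosphate dehydrogenase, which carries out the reducing step. At 0 h GAPA was at 2454, 3464 and 2728 CPM in the scrambled line and 2283, 2599 and 1968 in the NAA50 line, which overlapped. It was at 3648, 3738 and 3074 CPM in the scrambled line and 1699.7, 2028 and 1364 in the NAA50 line at 12 h, without overlap. At 24 h it was at 2156, 1646 and 2292 against 1451, 1673 and 1479 CPM, where scrambled library 2 fell among the NAA50 libraries. The line difference was -1.04 ± 0.19 (adjusted p = 3.52e-04) and then -0.40 ± 0.18 (adjusted p = 0.0809). GAPB was at 2061 to 2481 and 1442 to 2103 CPM at 0 h and at 2226 to 2724 and 1011 to 1426 at 12 h, in the same order of lines. It differed by -1.04 ± 0.20 at 12 h (adjusted p = 5.74e-04) and by -0.62 ± 0.20 at 24 h (adjusted p = 0.0167), with 1097 to 1872 CPM in the scrambled line and 928 to 1048 in the NAA50 line at 24 h. The 24 h difference of GAPB was called in 21 of the 25 other settings (adjusted p up to 0.0882). GAPA held 57.7% of the counts of GAPA plus GAPB in the scrambled line and 59.3% in the NAA50 line over 12 and 24 h, a difference of 1.59 points that did not pass (exact p = 0.155). Within the A subunit the proportion did differ. GAPA-2, a second A subunit gene 85.8% identical to GAPA over its coding sequence, held 30.5% of GAPA plus GAPA-2 counts in the scrambled line and 23.6% in the NAA50 line (exact p = 0.005, adjusted p = 0.00875). At 0 h it had held 45.6% and 40.8% (exact p = 0.2).

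CP12-2 encodes a small protein that binds PRK and the dehydrogenase into an inactive complex in the dark (AT3G62410, chr3:23090944-23091580). Its levels were 249.8, 360.3 and 249 CPM at 0 h, 414, 374 and 379.6 at 12 h, and 292, 230.4 and 367 at 24 h in the scrambled line. In the NAA50 line they were 286, 283 and 205, then 186, 208 and 156, then 222, 199.8 and 179 CPM. The NAA50 libraries were below the scrambled ones at 12 h and, by a small margin, at 24 h. The line difference was -0.15 ± 0.19 at 0 h (adjusted p = 0.727), the nearest to 0 of the 10 genes, -1.09 ± 0.19 at 12 h (adjusted p = 3.06e-04), then -0.57 ± 0.19 at 24 h (adjusted p = 0.0216, called in 22 of the 25 other settings, up to 0.118). Its response was -0.94 ± 0.27 at 12 h (adjusted p = 0.0183), called under all 25 other settings (adjusted p up to 0.0469), and -0.42 ± 0.27 at 24 h (adjusted p = 0.256).

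Across the 10 genes the lines differed as follows. At 0 h, 0 of the 10 were called by edgeR (2 at an unadjusted p under 0.05, 0 by DESeq2), and 0.01090% of the 18344 genes tested were called lower. The 10 differences at 0 h were nevertheless all negative, from -0.61 to -0.15 with a median of -0.38, where the median of all genes was 0.00. At 12 h 10 of 10 were lower, with 24.35% of all genes called lower and 21.90% higher. Their median was -1.06, against -0.03 for all genes, and in 10 of 10 the NAA50 libraries were all below the scrambled ones, as in 31.10% of all genes tested. At 24 h 7 of 10 were lower, with 24.07% of all genes lower and 23.87% higher and a median of -0.59 against -0.03. The NAA50 libraries were all below the scrambled ones in 7 of 10, and in 26.60% of all genes. Without scrambled library 2 of 24 h 10 were called, and without scrambled or NAA50 library 3 of 24 h 4 were called.

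Taking the 0 h difference off left fewer calls. At 12 h 3 of 10 were called lower (RBCS2B, RBCS3B and CP12-2), with 13.22% of all genes called lower, 11.78% called higher and medians of -0.70 for the 10 and -0.06 for all genes. With 1 library left out the count ran from 2 to 5, and it was 5 without scrambled library 2 of 0 h or of 24 h. It was 8 without both, an alternative chosen after seeing the data. At 24 h 1 of 10 was called (RBCS2B), with 15.07% of all genes lower and 14.68% higher. The count at 24 h was 2 without scrambled library 2 of 24 h and 3 without both libraries. The line difference at 24 h less that at 12 h was positive for all 10, from 0.24 to 0.63, and 0 were called by edgeR (1 at an unadjusted p under 0.05, 0 by DESeq2), against 4.432% of genes called higher. The line differences at 12 and 24 h come from separate libraries, but the responses share the 0 h libraries.

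**Figure D3:**
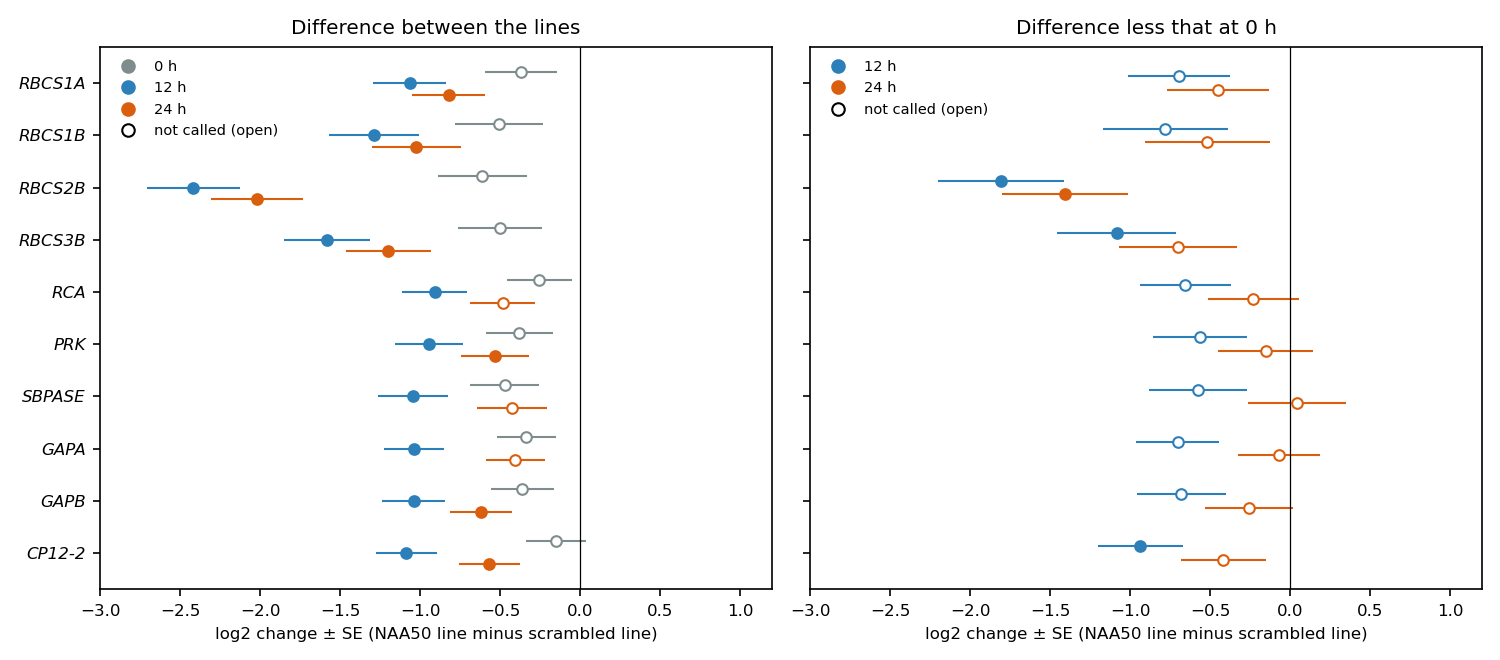
Log2 difference of each gene between the NAA50 line and the scrambled line ± SE (edgeR, 3 libraries a group) at 0, 12 and 24 h (left) and less the difference at 0 h (right); filled points passed an adjusted p of 0.05. RBCS2B stands farthest left in both panels, at -2.42 for the line difference at 12 h and -1.81 for the response.

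The levels also changed with time in each line. In the scrambled line 0 of the 10 were called from 0 to 12 h (2 at an unadjusted p under 0.05, 1 by DESeq2, RBCS3B), with 20.54% of all genes lower and 23.67% higher. RBCS3B was at -0.65 ± 0.26 (adjusted p = 0.0574) and CP12-2 at 0.44 ± 0.19 (adjusted p = 0.0671). From 0 to 24 h 8 of 10 were lower, all but RBCS1B and CP12-2, with 26.48% of all genes lower. RBCS3B changed most (-1.25 ± 0.27, adjusted p = 0.00114), then RBCS2B (-1.08 ± 0.28, adjusted p = 0.00440). This count was 4 without scrambled library 2 of 0 h, 4 without scrambled library 2 of 24 h and 1 without both.

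In the NAA50 line 6 of 10 were lower at 12 h than at 0 h, with 24.44% of all genes lower. RBCS2B changed by -2.34 ± 0.29 (adjusted p = 8.48e-06) and RBCS3B by -1.73 ± 0.27 (adjusted p = 7.47e-05), and RBCS1A, RCA, PRK and CP12-2 by -0.93 to -0.49. This count was 9 by DESeq2, with upper-quartile scaling, and without NAA50 library 2 of 12 h, scrambled library 2 of 24 h or both scrambled libraries 2. It was 4 without NAA50 library 2 of 0 h or NAA50 library 3 of 12 h. At 24 h 9 of 10 were lower than at 0 h, all but CP12-2 (-0.37 ± 0.19, adjusted p = 0.113), with 26.38% of all genes lower. RBCS2B was then at -2.49 ± 0.29 (adjusted p = 4.26e-06). This count was 6 without NAA50 library 2 of 0 h and 10 without both scrambled libraries 2.

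**Figure D4:**
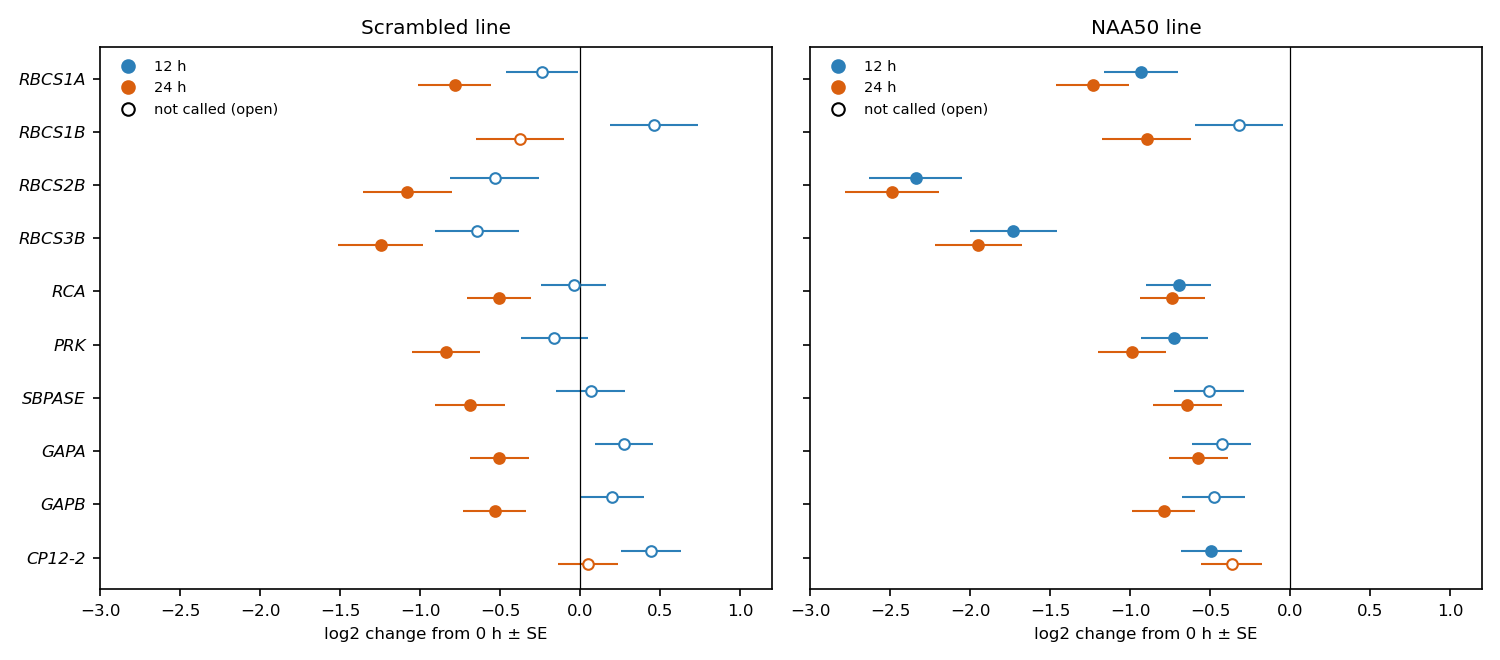
Log2 change from 0 h ± SE (edgeR, 3 libraries a group) at 12 and 24 h within each line; filled points passed an adjusted p of 0.05. In the scrambled line the 12 h points lie from -0.65 to 0.46 around 0, and in the NAA50 line from -2.34 to -0.32.

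Per kilobase of annotated exon, the order of the levels shifted. In the scrambled line at 0 h the order was RBCS1A (10014 ± 1613 CPM per kb, SD, n = 3), RCA (6977 ± 1690.0), RBCS2B (3562 ± 1088), RBCS3B (3209.6 ± 748), GAPA (1645 ± 298), GAPB (1189.9 ± 129), PRK (1147 ± 276), SBPASE (691 ± 121), RBCS1B (512 ± 122) and CP12-2 (449 ± 101). The libraries of RBCS2B and RBCS3B overlapped, as did those of GAPB and PRK, of SBPASE and RBCS1B, and of RBCS1B and CP12-2. RBCS2B was number 3 of the 10 in all 3 scrambled groups and in the NAA50 line at 0 h. It was number 7 at 12 h (460.2 ± 53.9 CPM per kb) and 24 h (415 ± 61.3) in the NAA50 line, below GAPA, RBCS3B, GAPB and PRK, with libraries overlapping those of PRK at both times. There the libraries of RCA and RBCS1A overlapped at both times, and at 24 h RCA was first (3509.7 ± 395 CPM per kb against 3292 ± 509). Exon lengths count minor transcripts, from 637 bases for CP12-2 to 2101 for RCA, and the 1894 of RBCS1B exceed the 935 of RBCS2B for a similar coding sequence.

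The genes around this set were lower in part, and their counts stand against 24.35% of all genes called lower and 21.90% higher at 12 h, and 24.07% and 23.87% at 24 h. Of 17 other listed Calvin cycle genes, 8 were lower and 1 higher at 12 h and 7 lower and 2 higher at 24 h (medians -0.51 and -0.34). At 12 h the genes lowest in adjusted p among the lower ones were the chloroplast aldolases FBA2 (-1.30 ± 0.21, adjusted p = 1.29e-04) and FBA1 (-1.29 ± 0.23, adjusted p = 3.59e-04), the ribose 5-phosphate isomerase EMB3119 (-0.78 ± 0.14) and the fructose-bisphosphatase HCEF1 (-1.15 ± 0.21). At 24 h these were AT1G56190, annotated as a phosphoglycerate kinase (-0.63 ± 0.10), EMB3119 (-0.66 ± 0.14), GAPA-2 (-1.04 ± 0.27) and CP12-3 (-0.95 ± 0.25). The aldolase gene PDE345 was higher at both times (1.03 ± 0.13 and 0.90 ± 0.13, adjusted p = 1.36e-05 and 3.73e-05), and the transketolase gene AT2G45290 was higher at 24 h (1.15 ± 0.20). The pathway thus held isoforms that differed between the lines in opposite directions, such as the aldolases. Part of this was there before induction: at 0 h 1 of the 17 was called higher, against 0.0872% of all genes. The highest difference of the 17 was 1.14 at 0 h. With the 0 h difference taken off, the highest was 0.73 at 12 h and 0.61 at 24 h. The listed locus ATCG00490, which the annotation used here does not name, had no called line difference (-0.21 ± 0.40 at 12 h and -0.28 ± 0.41 at 24 h).

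Rubisco has to be folded and assembled by chaperonins and dedicated factors. Of 12 such genes 10 were lower and 0 higher at 12 h and 9 lower and 1 higher at 24 h (medians -1.09 and -0.77). AT3G04550, annotated as a Rubisco accumulation factor-like protein, fell most clearly (-2.01 ± 0.21, adjusted p = 3.46e-06, and -1.35 ± 0.21, adjusted p = 1.08e-04), with responses of -1.60 ± 0.29 and -0.94 ± 0.29 (adjusted p = 0.00116 and 0.0243). The chaperonin gene Cpn60beta2 was lower at both times (-2.19 ± 0.31 and -1.55 ± 0.32) and Cpn60beta3 higher at 24 h (0.55 ± 0.16, adjusted p = 0.0113). Of 6 genes of the thioredoxin system, which switches Calvin cycle enzymes on in the light, 3 and 4 were lower and 0 higher. They included the reductase NTRC (-0.90 ± 0.14 and -0.87 ± 0.14), the thioredoxin TRXF1 (-0.92 ± 0.16 at 12 h) and AT2G04700, the ferredoxin thioredoxin reductase catalytic chain (-0.48 ± 0.11 at 24 h).

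Photorespiration salvages the product of oxygen fixation by Rubisco, and 10 of its 13 tested genes were lower at 12 h and 7 at 24 h, with 0 higher (medians -0.84 and -0.56). AT5G36700, the one listed gene not tested, and AT5G36790 share 100% and 97.1% of their 50-base windows with another gene. The glycine decarboxylase genes GLDP1 (-1.50 ± 0.24, adjusted p = 1.28e-04) and GLDP2 (-1.11 ± 0.18) were lowest in adjusted p at 12 h, and at 24 h AT1G80380 (-0.87 ± 0.14) and the serine hydroxymethyltransferase gene SHM1 (-0.77 ± 0.20). Of the 14 light-harvesting genes 13 and 10 were lower and 0 higher (medians -1.01 and -0.75), among them LHCA1 (-1.43 ± 0.27 at 12 h), LHCA3 (-1.18 ± 0.22 and -0.96 ± 0.22) and LHCB5 (-1.27 ± 0.26 at 12 h). In the response 0 of these 14 were called at either time. The response called 2 of the 17 Calvin cycle genes lower and 1 higher at both times, 3 and then 1 of the 12 assembly genes lower, and 4 and then 0 of the 13 photorespiration genes lower, where 13.22% and 15.07% of all genes were called lower and 11.78% and 14.68% higher. In the scrambled line itself 13 of the 14 light-harvesting genes were lower at 12 h than at 0 h, and 14 at 24 h. Of all genes 20.54% and 26.48% were lower there. In the NAA50 line 14 of 14 were lower than at 0 h at both times, against 24.44% and 26.38% of all genes.

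**Figure D5:**
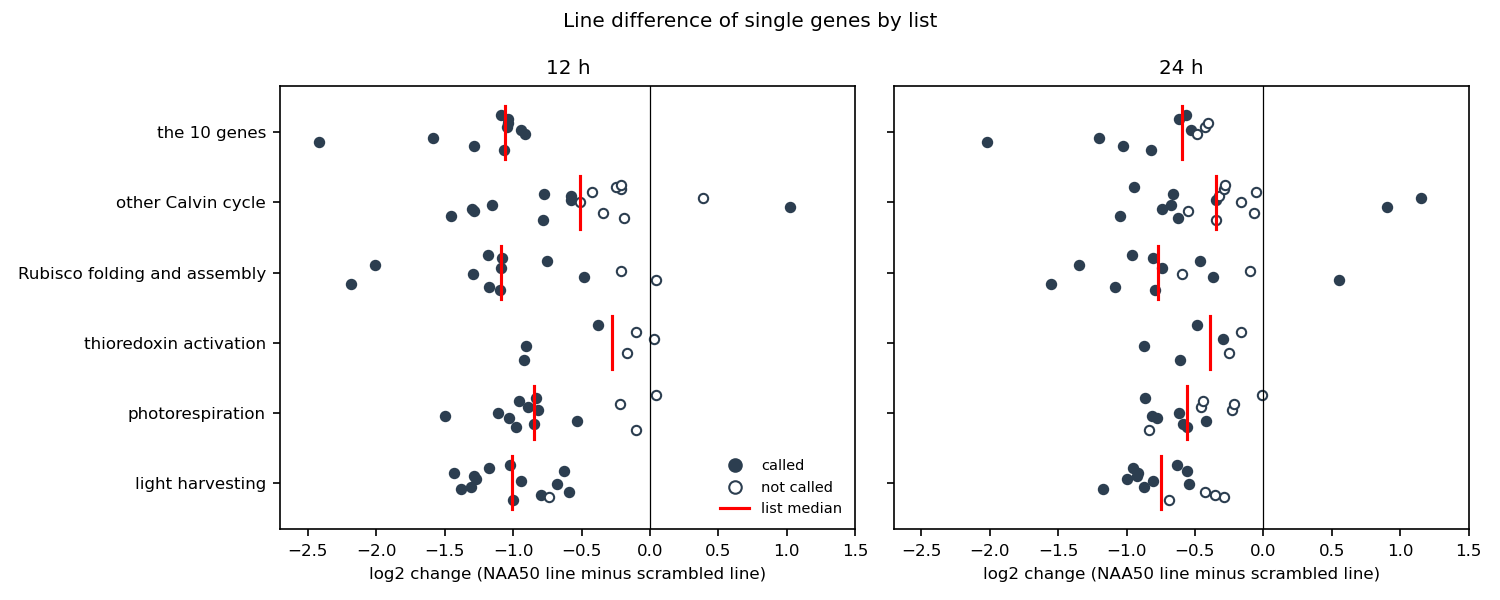
Log2 line difference of single genes at 12 h (left) and 24 h (right) in 6 lists; filled points were called, and red bars are list medians. At 12 h the medians run from -1.09 for Rubisco folding and assembly to -0.27 for thioredoxin activation, with -1.06 for the 10 genes.

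Of 8 listed transcription factors of light and chloroplast genes, 3 were lower and 1 higher at 12 h and 2 lower and 1 higher at 24 h, against the same shares of all genes, so that the 2 of 8 at 24 h were near the 24.07% of all genes. GLK2, an activator of chloroplast genes, was at 224 ± 33.3 CPM (SD, n = 3) in the scrambled line and 55.4 ± 5.55 in the NAA50 line at 12 h, and at 137 ± 58.1 and 25.4 ± 12.31 at 24 h. Its line differences were -2.01 ± 0.31 (adjusted p = 1.02e-04) and -2.43 ± 0.32 (adjusted p = 2.06e-05), and its responses were -1.80 ± 0.43 (adjusted p = 0.00666) and -2.21 ± 0.43 (adjusted p = 0.00155). The GATA factor CGA1 was lower (-1.30 ± 0.31 and -2.11 ± 0.40), and GBF2, of the G-box binding bZIP factors, was higher (0.85 ± 0.19 and 1.07 ± 0.19, adjusted p = 0.00174 and 2.76e-04).

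Some markers of other cell types differed between the same groups. Their counts stand against 24.35% of all genes called lower and 21.90% higher at 12 h, and 24.07% and 23.87% at 24 h. A count such as 1 of 4 guard cell markers lower at 24 h is near the share of all genes. Of 6 vascular markers 2 were higher and 1 lower at 12 h and 5 higher and 1 lower at 24 h, and their summed level was 497 to 527 CPM in the scrambled line and 706 to 782 in the NAA50 line at 12 h. At 24 h it was 587 to 698 and 846 to 1256 CPM. The companion cell sucrose transporter SUC2 (1.53 ± 0.17 and 1.72 ± 0.17) and the xylem protease XCP1 (1.86 ± 0.28 and 2.69 ± 0.28) were higher, and the proton pump AHA3 lower (-0.56 ± 0.10 and -0.69 ± 0.10). Of 4 guard cell markers 2 and then 1 were lower, among them KAT1 (-0.89 ± 0.19 and -1.14 ± 0.18) and MYB60 (-0.84 ± 0.18 at 12 h), with sums of 43.5 to 47.5 and 26.6 to 32.9 CPM at 12 h and 51.9 to 62.5 and 32.8 to 35.9 at 24 h. Of 4 epidermis markers, 3 of them tested, ATML1 was lower at both times (-1.34 ± 0.22 and -0.84 ± 0.22), and FDH was higher (1.26 ± 0.20) and GL2 lower (-2.35 ± 0.70) at 24 h. Their sums were 216 to 298 and 179 to 292 CPM at 12 h and 133 to 174 and 227 to 347 at 24 h, with PDF1 at 1.02 CPM or less in every library and GL2 at 1.40 or less. Of 4 senescence genes, 3 of them tested, NYE1, which starts chlorophyll breakdown, was higher (0.48 ± 0.11 and 0.76 ± 0.11), while the median of the 3 line differences was -0.61 at 12 h and 0.53 at 24 h. In the response at 12 h, where 13.22% of all genes were called lower and 11.78% higher, 0 of the senescence genes were higher. SAG13 (-2.86 ± 0.78, adjusted p = 0.0152) and NAC092 (-2.26 ± 0.67, adjusted p = 0.0228) were lower in it. At 24 h the response of SAG13 was -2.11 ± 0.78 (adjusted p = 0.0517). The sums of these 4 were 55.7 to 154 CPM in the scrambled line and 225 to 389 in the NAA50 line at 0 h, 318 to 569 and 244 to 426 CPM at 12 h and 768 to 1396 and 994 to 1490.0 at 24 h, and SAG12 was at 2.68 CPM or less. The part of these markers in the results on the 10 genes was not tested.

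Over the 18 libraries, the genes whose log2 level followed the mean of the 10 genes most closely were the chloroplast fatty acid desaturase gene FAD8 (Pearson r = 0.991), the glycolate oxidase gene GOX2 (0.990), AT4G13500 (0.987), AT1G71500 (0.987) and AT1G01970 (0.985). They were taken from 15902 genes by likeness, so this is a description, and all values share the same libraries. FAD8 was lower in the NAA50 line by -1.86 ± 0.30 on the log2 scale at 12 h and -1.40 ± 0.31 at 24 h.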

How the data were processed

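Poly(A) RNA was sequenced with a stranded kit, per the labels' protocols. The deposited values are whole-number counts per gene, which the authors made from reads of each library. The submitters' processing notes name Trimmomatic, STAR, DESeq2 and the TAIR10 genome. How reads were assigned to genes (program, strand, reads matching several genes) is not given in the sources used here. RCA and PRK overlap a gene on the other strand and GAPA one on its own, so some of their counts could be shared. The 10 genes and the other lists were chosen with earlier results of these data known.

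Genes passing filterByExpr (minimum count 10, minimum total 15) were fitted together over all 18 libraries with edgeR 4.0.16 in R 4.3.3, using TMM scaling, 1 mean per line and time, the quasi-likelihood F test with 12 residual degrees of freedom and Benjamini-Hochberg adjustment over 18344 genes. A gene was called at an adjusted p under 0.05, and an SE is the absolute log2 change over the square root of F. Levels are TMM-scaled CPM, and 3 counts, taken as the floor, were 0.243 to 0.289 CPM. The biological coefficient of variation was 18.2%. Shares were compared by permuting line labels within times. From each other list the text names the 2 genes with the lowest adjusted p in each direction at 12 and 24 h (up to 4 for the Calvin cycle). The fit was tested on simulated counts of 18344 genes for the line difference at 24 h: 83.3% and 96% of genes set 4-fold lower or higher were called, 60.4% and 62% of those set 2-fold lower or higher, and 5 unchanged genes. Only 48 or 50 tested genes were set at each change, whereas 47.9% of all genes were called at 24 h in the data. The simulated rates therefore need not hold for the data. Lengths, positions and sequences are from RefSeq's annotation of TAIR10.1, which held 98.8% of the locus identifiers, and coding sequences were aligned with mafft 7.526. Figures were drawn with matplotlib 3.10.9. Alternatives were DESeq2 1.42.0, other scalings, no filter, only the groups compared, a replicate block, and each library left out. Replicate numbers were not taken to pair libraries: of 45 correlations between same-numbered libraries 21 were over 0.1, and they ran from -0.485 to 0.409.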

Additional observations from a re-analysis of the deposited data

Results flagged for a closer look

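For 3 of the 10 genes the difference between the lines after induction was not the same as at 0 h, by the test of that difference in the edgeR fit (Benjamini-Hochberg adjusted over all genes). RBCS2B had a knockdown response of -1.81 at 12 h (adjusted p = 0.00401), then -1.41 at 24 h (adjusted p = 0.0143). RBCS3B had one of -1.08 at 12 h (adjusted p = 0.0436), which was not called in 11 of 25 other settings. CP12-2 had one of -0.94 at 12 h (adjusted p = 0.0183). Over all genes 13.22% were called lower in this response at 12 h and 15.07% at 24 h. RBCS2B and RBCS3B each share part of their sequence with another gene, though at 100-base windows the shared part of RBCS2B was 0%. How reads matching several genes were counted is not known here.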

How the results depend on the processing

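The line difference at 12 h was called for all 10 genes under each of the 25 alternatives. At 24 h 4 were called when only the compared groups were fitted and 4 to 10 with 1 library left out. Responses at 12 h were called for 2 to 5 genes with 1 library left out and for 8 without library 2 of the scrambled line at 0 and 24 h, an alternative chosen after seeing the data. At 24 h they were called for 1 to 2 and for 3, with a median of -0.67 without both libraries. From 0 to 12 h in the scrambled line, 1 gene (RBCS3B) was lower under DESeq2, library-size scaling, upper-quartile scaling and with only the compared groups. CP12-2 was higher (1 gene) under library-size scaling and without both libraries, and 0 to 1 were lower and 0 to 1 higher with 1 library left out. From 0 to 24 h there, 5 were lower under library-size scaling, 3 with only the compared groups, 4 to 8 with 1 library left out and 1 without both, with a median of -0.30. In the NAA50 line 4 to 9 were lower to 12 h and 6 to 10 to 24 h with 1 library left out, and 9 and 9 by DESeq2. The cause was not tested.

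Some differences that were not called changed sign. Without both libraries the line difference of CP12-2 at 0 h was 0.0518, the response of SBPASE at 24 h -0.31, the 24 h less 12 h difference of RBCS1B -0.0227, and the scrambled line's changes 0.14 (RCA) and 0.0240 (PRK) to 12 h and 0.0362 (RBCS1B) to 24 h. Library-size scaling gave -0.0605 for the SBPASE response at 24 h, and upper-quartile scaling -0.0606 for SBPASE to 12 h and -0.0737 for CP12-2 to 24 h in the scrambled line. With 1 library left out, the ranges were -0.24 to 0.0520 (CP12-2 at 0 h), -0.36 to 0.00858 (PRK response at 24 h), -0.16 to 0.21 (SBPASE) and -0.22 to 0.0325 (GAPA). In the scrambled line to 12 h they were -0.17 to 0.14 (RCA), -0.27 to 0.0243 (PRK) and -0.0285 to 0.19 (SBPASE), and to 24 h -0.13 to 0.24 (CP12-2). The RBCS1B share difference ran from -0.154 to 0.112 points. With the replicate number as a block, 7 of the 10 genes in place of 8 were lower from 0 to 24 h in the scrambled line, and the other counts of called genes were unaltered except as given here: 10 and 7 for the line differences and 3 and 1 for the responses. Library-size scaling moved the median of all genes by up to 0.15 on the log2 scale.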
